A study of Citrus trifoliata with 6 samples.

Results

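The genes of starch synthesis and breakdown were examined in lateral roots of *Poncirus trifoliata*, a citrus rootstock, with and without the arbuscular mycorrhizal (AM) fungus *Glomus versiforme*. They were chosen by the words of their annotation (names of the starch and glucan enzymes) and numbered 30 of the 22589 genes listed, of which 28 are annotated as enzymes of starch or glucan metabolism and 2 matched by wording only. Of the 30, 27 had enough reads to be tested. Seedlings stood 8 to a pot in sterile quartz sand and received nutrient solution with 20 μM phosphorus. Colonized plants (Gv) were given inoculum with about 3000 spores of *G. versiforme* per pot, control plants were given none, and both were sampled at 3 months post-inoculation. There were 3 Gv and 3 control libraries, each from the pooled lateral roots of several plants taken from different pots. Colonized and uncolonized cells of a root were thus not separated, and the reads were assigned to genes of sweet orange (*Citrus sinensis*), a related species.

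Starch is a store of glucose laid down as granules inside plastids. In root plastids the carbon enters mostly as glucose 6-phosphate, which phosphoglucomutase turns into glucose 1-phosphate, and ADP-glucose pyrophosphorylase (AGPase) then makes the sugar donor ADP-glucose in the step that is widely held to control the pathway. Starch synthases lengthen the chains, branching enzymes and isoamylases shape them, and in breakdown glucan water dikinases phosphorylate the granule surface so that beta-amylases and phosphorylases can reach the chains. An AM fungus lives on carbon from its host, supplied as sugars and lipids.

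Each Gv library held 4.34 to 4.63 M reads on genes (M, 1e6) and each control library 4.51 to 4.71 M. The orthologs of the symbiotic phosphate transporter gene PT4 followed the labels: in Gv replicates 1, 2 and 3 Cs7g29450 was counted 839, 983 and 5257 times, against 2, 1 and 0 times in the control replicates. Gv replicate 3 was thus the highest of the colonized libraries for this marker of colonization. The 6 genes picked by annotation words for the root endodermis were present throughout, with summed levels of 65.7 to 84.2 RPKM (reads per kb of gene and M reads) in Gv and 73.4 to 86.3 RPKM in control roots. Most of the sum came from Cs1g21500 (46.0 to 60.5 RPKM in Gv and 50.7 to 58.1 RPKM in control). Cs6g14190, Cs6g21500 and Cs8g14760 had few reads in every library. The 8 markers of green tissue summed to 102 to 144 RPKM in Gv and 111 to 126 RPKM in control, most of it from 1 gene of the RuBisCO small subunit type (Cs4g03580), and 3 of the 8 were at 0 in some library. Across genes, both replicates 3 departed together from replicates 1 and 2 of their groups. The values do not settle whether the Gv and control libraries numbered 1, or those numbered 2, belong together.

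No starch gene passed the test between Gv and control roots. Calls required an adjusted p under 0.05 in edgeR's quasi-likelihood test, with Benjamini-Hochberg adjustment over the 16281 genes tested, and a change of 2-fold or more. By this rule 0 of the 27 were higher and 0 were lower in Gv, where 0% and 0% of all genes were called. At an unadjusted p under 0.05 there were 0 of 27 starch genes, against 4.57% of all genes. DESeq2 gave no p-value for Cs8g07230, the gene with the largest estimate, and so could not call it. Of the other 26 it called 0 higher and 0 lower in Gv (1.21% and 0.0368% of the genes it tested) and found 0 at an unadjusted p under 0.05 (3.79%). When the replicate number entered as a block, 0.958% of all genes were called higher and 0.0369% lower in Gv, and again 0 of the 27 starch genes in either direction. In 0 of the 27 did every Gv library lie above every control library (5.17% of all genes) or below (3.99%).

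The estimates were centred near no change, with a median log2 fold change of 0.02 over the 27 genes and of -0.01 over all genes tested. There were 14 genes above 0 and 13 below, and 22 were under 0.4 in size. The 95% confidence interval lay within a 2-fold change in either direction for 17 of the 27 genes without the block, against 68.1% of all genes, and for 20 with the block, against 78.6%. For the remaining genes the interval did not exclude a change of 2-fold. The standard errors ran from 0.12 to 1.5 on the log2 scale without the block. In RNA from whole roots, fewer cells of a type and less RNA per cell cannot be told apart, for these genes or any other.

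**Figure D1:**
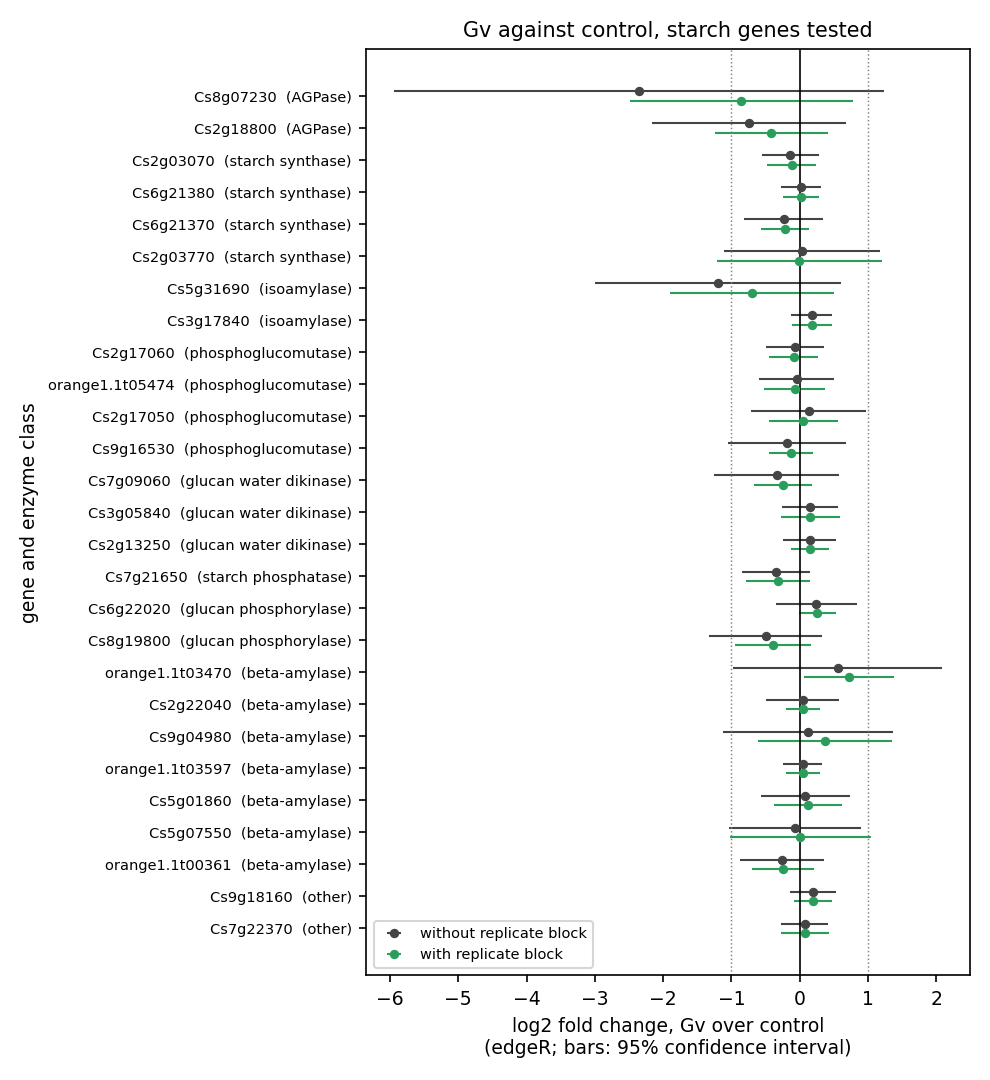
Log2 fold change of each of the 27 starch genes tested, Gv over control (x axis, edgeR), without and with the replicate number as a block, with bars for the 95% confidence interval and the genes grouped by enzyme class. The intervals of the genes include 0 in both fits except that of orange1.1t03470 with the block, and the widest belongs to Cs8g07230 without the block.

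AGPase, which makes ADP-glucose, had 4 genes annotated by name, and a pair of these carried their summed level. KEGG Orthology places Cs3g25100, Cs3g25110 and orange1.1t00611 as AGPase too, under other annotations. Cs3g25100 had 17.9, 13.7 and 14.8 RPKM in Gv replicates 1, 2 and 3, against 18.3, 13.3 and 7.99 RPKM in control roots. Control replicate 3 was its lowest library but the highest of Cs3g25110, and orange1.1t00611 had few reads. The large subunit gene Cs8g07230 had 240, 296 and 1196 reads in Gv replicates 1, 2 and 3, against 215, 284 and 8842 reads in control replicates 1, 2 and 3. These reads correspond to 10.6, 12.4 and 53.5 RPKM in Gv and to 9.25, 11.7 and 376 RPKM in control roots. Replicate 3 was the highest library of each group, control replicate 3 stood far above all others, and the groups overlapped. The paper, which used NOISeq with its own threshold, counts Cs8g07230 among the genes down-regulated in colonized roots. In the edgeR test used here it was not called. The log2 fold change was -2.35 (SE 1.5, 95% confidence interval -5.94 to 1.24, adjusted p = 1.00 by edgeR's quasi-likelihood test, n = 3 per group).

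Set against its same-numbered control, the Gv library had 1.17 times the scaled reads of Cs8g07230 for number 1 (95% exact interval 0.967 to 1.41), and the interval for number 2 was 0.848 to 1.18. For number 3 the ratio was 0.145 (0.136 to 0.154). These intervals cover counting error only. The negative fold change therefore rested on control replicate 3, and without that library it was 1.24. That fit keeps Gv replicate 3, the highest Gv library, without its same-numbered control, so the 1.24 does not show a rise in Gv. Within a group, Gv replicate 3 had 4.57 times (4.12 to 5.07) the scaled reads of replicates 1 and 2 pooled, and control replicate 3 had 34.0 times (31.1 to 37.3). Reads covered 40.74%, 37.89% and 49.44% of the gene's bases in Gv replicates 1, 2 and 3, and 41.46%, 37.13% and 71.33% in the control replicates. Coverage rises with the number of reads, so the higher value of control replicate 3 adds nothing to its higher count.

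The second expressed gene annotated as AGPase, Cs2g18800, varied the same way as Cs8g07230 with a smaller range. It had 617, 694 and 932 reads in Gv, against 600, 632 and 2674 reads in control replicates 1, 2 and 3, which is 41.8, 44.7 and 63.9 RPKM against 39.6, 39.9 and 175 RPKM. Again replicate 3 was the highest of each group and the groups overlapped. The log2 fold change was -0.74 (SE 0.59), with 0.30 when control replicate 3 was left out. The remaining genes annotated as AGPase were close to silent in these roots and were not tested. The large subunit gene Cs9g06360 had 1 read in Gv replicate 3 and 1 in control replicate 3. The gene orange1.1t02484 had 6, 8 and 9 reads in Gv, against 4, 5 and 5 in control roots. The Gv values of orange1.1t02484 lay above the control values, at depths where the counts are of the size of their counting error.

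**Figure D2:**
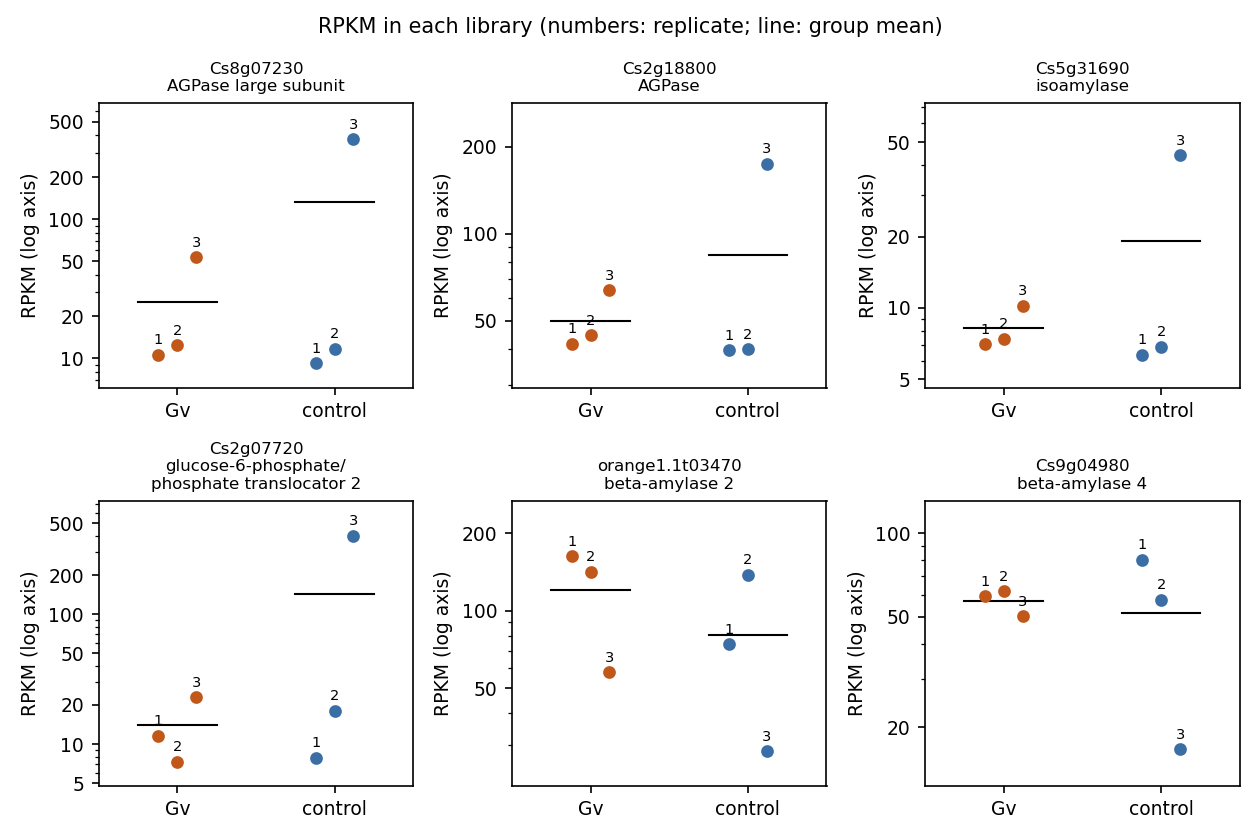
RPKM (log axis) of 5 starch genes and of the plastid glucose 6-phosphate translocator gene Cs2g07720 in each Gv and control library, with the replicate number at each point and a line at the group mean. Control replicate 3 is the highest library for Cs8g07230, Cs2g18800, Cs5g31690 and Cs2g07720 and the lowest for orange1.1t03470 and Cs9g04980.

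The 4 starch synthase genes, which add glucose to the growing chains, had log2 fold changes between -0.23 and 0.04. Cs2g03070, annotated as soluble starch synthase 3 and the highest of them, had 684, 706 and 668 reads in Gv, against 692, 651 and 979 reads in control roots. The 3 Gv libraries were close together, within the range of the control libraries, and the log2 fold change was -0.14 (SE 0.17). Cs6g21370 had 100, 83 and 106 reads in Gv, against 117, 83 and 150 in control roots, with a log2 fold change of -0.23 (SE 0.24). Its neighbour in number, Cs6g21380, carries the same annotation and had 0.02 (SE 0.12), the change closest to 0 among the starch synthases. Cs2g03770, annotated as isoform V, had no more than 16 reads in any library. Cs2g03770, Cs6g21380, and every gene given below that is not the highest or the most changed of its class, were picked for description after their values were seen.

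Isoamylases cut misplaced branches from the growing granule, and 1 of the 2 isoamylase genes was high in a single library. Cs5g31690 had 110, 122 and 158 reads in Gv, against 102, 115 and 715 reads in control roots (7.03, 7.41 and 10.2 RPKM against 6.35, 6.86 and 44.0 RPKM). The single high library was control replicate 3, at 6.32 times (5.43 to 7.40) the scaled reads of control replicates 1 and 2 pooled. The log2 fold change was -1.20 (SE 0.75) over all libraries and 0.28 without control replicate 3. Cs3g17840 had 377, 366 and 319 reads in Gv, against 308, 304 and 350 in control roots. Its highest library of the control group was also replicate 3, but the whole range over the 6 libraries was narrow and the log2 fold change was 0.18 (SE 0.13).

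Phosphoglucomutase, which links glucose 6-phosphate and glucose 1-phosphate, had 4 genes, and only Cs9g16530 is annotated as chloroplastic. Cs9g16530 had 214, 244 and 357 reads in Gv, against 228, 223 and 504 reads in control roots. Replicate 3 was highest in both groups, and the groups overlapped, with a log2 fold change of -0.18 (SE 0.36). The files list this gene at 28029 bases, which makes its RPKM (1.69 to 3.94 over the 6 libraries) low for its reads. Cs2g17060, the highest of the class by RPKM, had 324, 353 and 472 reads in Gv, against 430, 385 and 420 in control roots (log2 fold change -0.07, SE 0.17). The cytosolic gene Cs2g17050 had 87, 95 and 199 reads in Gv, against 105, 109 and 144 in control roots, so that here Gv replicate 3 and not control replicate 3 was the highest of the 6. The cytosolic genes Cs2g17050 and orange1.1t05474 and the adjacent number Cs2g17060 may share sequence, and only uniquely aligned reads were counted, so their division is uncertain.

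The glucan water dikinases, which open the granule surface for breakdown, had 3 genes. Cs7g09060, the R1 type and the highest of them, had 505, 513 and 728 reads in Gv, against 525, 501 and 1257 reads in control roots. Replicate 3 was again the highest library of each group, and the log2 fold change was -0.34 (SE 0.38). The other two, Cs2g13250 and Cs3g05840, had log2 fold changes of 0.15 and 0.16. Cs7g21650, annotated as starch excess 4, the phosphatase that in Arabidopsis removes the phosphate groups again, had 166, 166 and 148 reads in Gv, against 179, 169 and 280 reads in control roots. Its unadjusted p of 0.139 was the smallest of the 27 genes without the block (edgeR's quasi-likelihood test, adjusted p = 1.00, log2 fold change -0.35). The Gv to control ratio was 0.565 (0.460 to 0.692) for number 3, while the intervals for numbers 1 and 2 included 1. Its log2 fold change became -0.10 when control replicate 3 was left out.

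Glucan phosphorylases release glucose 1-phosphate from chain ends. Cs8g19800, annotated as type H, had 549, 538 and 626 reads in Gv, against 560, 583 and 1360 in control roots, with a log2 fold change of -0.50 (SE 0.35). For number 3 its Gv to control ratio was 0.492 (0.447 to 0.541), and for number 2 it was 0.886 (0.787 to 0.998), while the interval for number 1 was 0.910 to 1.16. Cs6g22020 had 591, 555 and 785 reads in Gv, against 464, 460 and 755 in control roots, higher in Gv in each same-numbered pair, with ratios of 1.33, 1.16 and 1.11. Its log2 fold change was 0.25 (SE 0.25), and 0.26 with the block (95% confidence interval -0.01 to 0.53, adjusted p = 0.572 by edgeR's quasi-likelihood test). Without the block it was 0.07 without Gv replicate 3, 0.13 without control replicate 1 or 2, and 0.37 and 0.50 without Gv replicate 2 and control replicate 3.

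Beta-amylases release maltose from the chains, and among the classes of the 30 genes, which leave out granule-bound starch synthase, the 8 beta-amylase genes held the highest summed level in 5 of the 6 libraries. Their sum was 300, 275 and 207 RPKM in Gv replicates 1, 2 and 3 and 231, 262 and 143 RPKM in control replicates 1, 2 and 3, which is lowest in replicate 3 of each group. The sum of the genes annotated as AGPase, without those placed there by KEGG Orthology only, was 52.9, 57.8 and 118 RPKM in Gv. In control roots it was 49.2, 52.1 and 551 RPKM. In control replicate 3 alone the AGPase sum was above the beta-amylase sum.

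Beta-amylase 2 (orange1.1t03470) had the highest mean RPKM of the 30 genes over the 6 libraries together. It had 2747, 2522 and 963 reads in Gv, against 1282, 2496 and 498 in control roots, which is 163, 142 and 57.8 RPKM against 74.0, 138 and 28.4 RPKM. Replicate 3 was the lowest library of each group, at 0.374 times (0.349 to 0.401) replicates 1 and 2 pooled in Gv and 0.253 times (0.230 to 0.278) in control roots. The Gv to control ratio was 2.24 (2.10 to 2.40) for number 1, 0.970 (0.918 to 1.03) for number 2 and 2.07 (1.85 to 2.31) for number 3. The log2 fold change was 0.56 (SE 0.64) without the block. With the block it was 0.72 (95% confidence interval 0.06 to 1.39). None of the other 26 genes tested reached an unadjusted p under 0.05 with the block, while 8.998% of all genes did. Beta-amylase 2 did not pass the correction (adjusted p = 0.514, edgeR's quasi-likelihood test). Without the block, leaving out 1 library moved the log2 fold change to 0.15 (without control replicate 3), 0.27 (without Gv replicate 1), 0.90 (without Gv replicate 3) or 1.25 (without control replicate 2).

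Beta-amylase 4 (Cs9g04980) had 761, 836 and 636 reads in Gv, against 1056, 792 and 222 in control roots. The low library was control replicate 3, at 0.231 times (0.20 to 0.265) control replicates 1 and 2 pooled, and the Gv to control ratio for number 3 was 3.06 (2.62 to 3.58). For number 1 the ratio went the other way, at 0.754 (0.686 to 0.828), and for number 2 it was 1.01 (0.919 to 1.12). In Arabidopsis beta-amylase 4 lacks catalytic activity. Beta-amylase 8 (Cs5g07550), a type that in Arabidopsis acts in the nucleus, had 89, 101 and 133 reads in Gv, against 128, 162 and 55 reads in control roots. Its groups overlapped as well, with control replicate 3 the lowest of the 6 and a log2 fold change of -0.07 (SE 0.40). Beta-amylase 5 (Cs2g22040) went the opposite way, highest in replicate 3 of both groups, with 732, 672 and 927 reads in Gv, against 746, 602 and 977 in control roots. The beta-amylases 3, 6 and 7 (Cs5g01860, orange1.1t00361 and orange1.1t03597) had log2 fold changes of 0.09, -0.26 and 0.04. The eighth gene, orange1.1t03473, shares the annotation of beta-amylase 2 and had at most 1 read per library.

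The 2 genes matched by wording only were Cs9g18160, annotated as aspartyl transcarbamylase but placed by KEGG Orthology as an aspartyl-tRNA synthetase, and Cs7g22370, which KEGG Orthology places as phosphoacetylglucosamine mutase. Cs9g18160 had 714, 842 and 893 reads in Gv, against 665, 765 and 750 in control roots, with a log2 fold change of 0.20 (SE 0.14). Cs7g22370 had between 85 and 88 reads in Gv and between 80 and 91 in control roots.

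**Figure D3:**
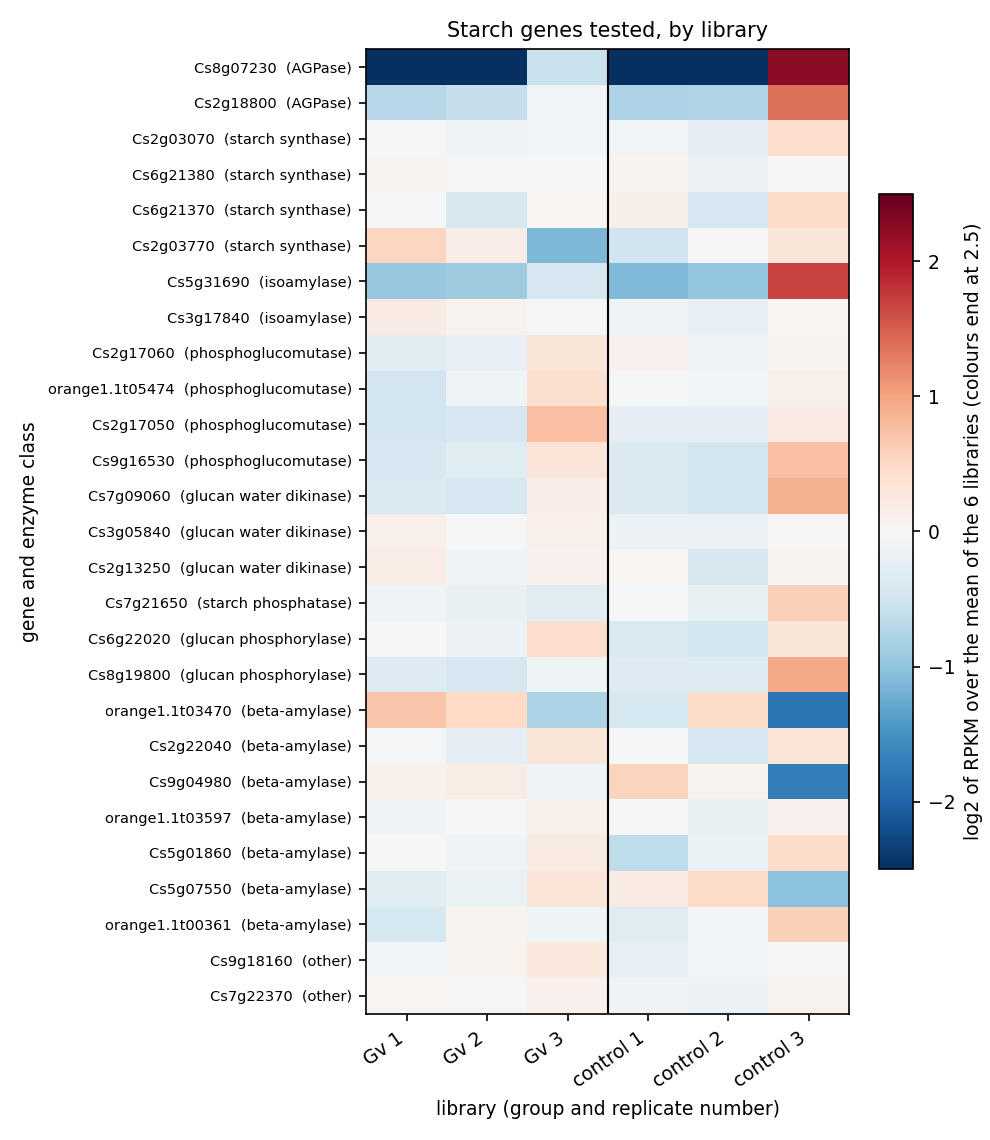
Log2 of each tested starch gene's RPKM over its mean RPKM in the 6 libraries (colour, ending at 2.5 in size), with the Gv libraries left of the control libraries and the genes grouped by enzyme class. In the column of control replicate 3 the AGPase genes, Cs5g31690, Cs7g09060 and Cs8g19800 are high and the beta-amylases 2, 4 and 8 (orange1.1t03470, Cs9g04980 and Cs5g07550) are low.

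Replicate 3 was the highest or the lowest library of both groups for some starch genes, but often not to the same extent. For Cs5g31690, replicate 3 was 1.40 times the mean of replicates 1 and 2 in Gv and 6.32 times in control roots. For Cs5g07550 these ratios were 1.43 and 0.364, in opposite directions. In the F test of the replicate number beside the group, 1 of the 27 genes passed an adjusted p under 0.05 (edgeR's quasi-likelihood F test), Cs9g16530 with an adjusted p of 0.0496, against 4.69% of all genes. At an unadjusted p under 0.05 there were 10 of 27, against 26.1% of all genes. At an adjusted p under 0.1 there were 6, against 13.9%, among them Cs8g07230 (adjusted p = 0.0621) and orange1.1t03470 (adjusted p = 0.0636). The counts depended on single libraries, over the starch genes and over all genes. A fit without 1 library leaves its replicate number with a single library. Such counts show this dependence only, and not whether same-numbered libraries share a level. Without Gv replicate 3 the test called 8 of the 27 (8.25% of all genes), without Gv replicate 2 it called 1 (2.59%) and without Gv replicate 1 it called 0 (0%). Leaving out any of the control libraries lowered the count over all genes.

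Replicate 3 was the highest library for 17 of the 27 genes in Gv (41.8% of all genes) and for 20 in control roots (42.2%), and for 14 in both (27.9%). It was the lowest for 5 in Gv (41.1% of all genes), for 3 in control roots (42.2%) and for 2 in both (27.6%). In control replicate 3, 6 of the 27 genes were at least 2-fold above the mean of replicates 1 and 2 (5.95% of all genes): Cs8g07230, Cs5g31690, Cs2g18800, Cs7g09060, Cs8g19800 and Cs9g16530. Another 3 were at least 2-fold below it (11.4%), and these were the beta-amylases 2, 4 and 8. In Gv replicate 3, 2 genes were at least 2-fold above (5.67%), Cs8g07230 and Cs2g17050, and 2 were below (6.71%), orange1.1t03470 and Cs2g03770.

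**Figure D4:**
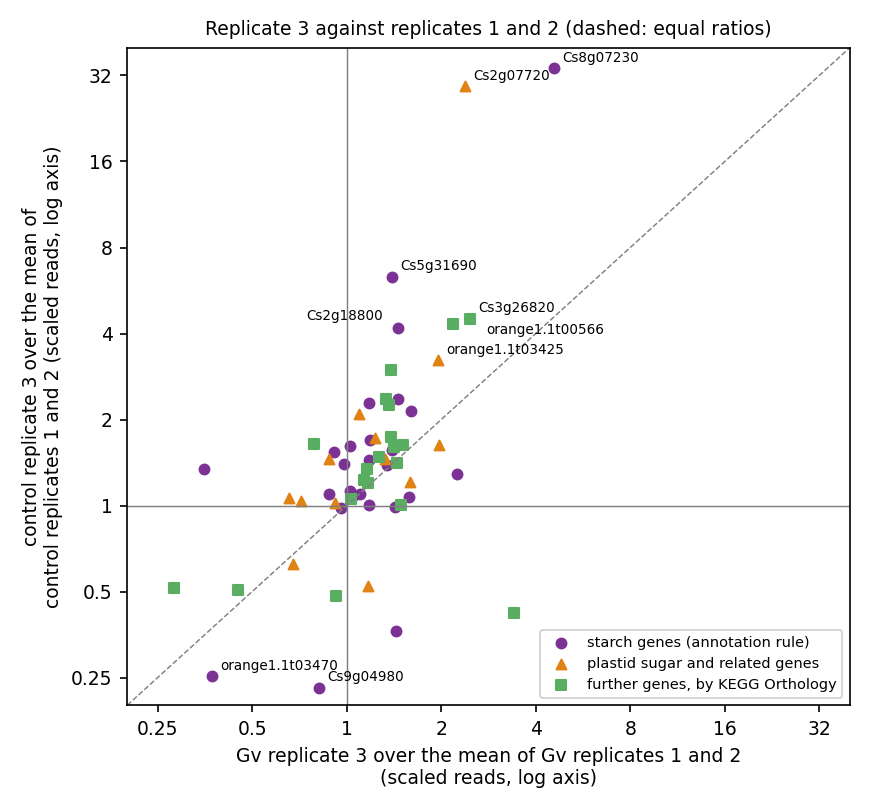
Replicate 3 over the mean of replicates 1 and 2 in Gv (x axis) and in control roots (y axis), as ratios of scaled reads on log axes, for starch genes, plastid sugar and related genes and genes added by KEGG Orthology. Cs8g07230 lies at 4.58 in Gv, against 34.0 in control roots, and orange1.1t03470 at 0.373 and 0.253.

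The same-numbered libraries were also compared pair by pair, although it is not settled that numbers 1 and 2 are pairs. For number 1, Gv was at least 2-fold above control in 2 of the 27 genes (4.15% of all genes), orange1.1t03470 and Cs2g03770, and at least 2-fold below in 0 (2.97%). For number 2 there were 0 above (3.27%) and 0 below (2.43%). For number 3 there were 3 above (7.11%), the beta-amylases 2, 4 and 8, and 5 below (2.93%): Cs8g07230, Cs5g31690, Cs2g18800, Cs8g19800 and Cs2g03770. Apart from Cs2g03770, the genes that were lower in Gv for number 3 are among those at least 2-fold high in control replicate 3. Without control replicate 3, 21 of the 27 log2 fold changes were above 0 and 6 below, with a median of 0.20, while 51.6% of all genes were above 0, with a median of 0.01. This fit keeps Gv replicate 3 without its same-numbered control. Gv replicate 3 was the highest Gv library for 17 of the 27 genes (41.8% of all genes), so the shift does not show a rise in Gv. In that setting 1 starch gene, Cs6g22020, had an unadjusted p under 0.05, against 7.26% of all genes, and its adjusted p of 0.676 was the smallest of the starch genes (edgeR's quasi-likelihood test). With each other library left out in turn, between 11 and 16 were above 0.

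A list of 14 further genes of starch and plastid sugar metabolism, selected by their annotation, was read beside them. Of its 13 tested genes, 0 were called between Gv and control roots by edgeR's quasi-likelihood test without or with the block (0 at an unadjusted p under 0.05 without it). With the block, Cs1g13530 (a plastidic ATP/ADP transporter gene) and the sucrose synthase gene Cs5g33470 had an unadjusted p under 0.05. So did 8.998% of all genes. Their log2 fold changes with the block were -0.47 and 0.38 (adjusted p = 0.439 and 0.488, edgeR's quasi-likelihood test). For Cs1g13530 the Gv to control ratios were 0.859, 0.760 and 0.573 for numbers 1, 2 and 3. DESeq2 also called 0, but gave Cs2g07720, the gene with the largest estimate, no p-value. For the list the median log2 fold change was 0.04. Cs2g07720, a translocator that exchanges glucose 6-phosphate for phosphate at the plastid envelope, had 168, 111 and 328 reads in Gv, against 116, 280 and 6050 in control roots. As with Cs8g07230, a single control library, replicate 3, held most of the reads, at 29.3 times (26.5 to 32.5) control replicates 1 and 2 pooled, and the log2 fold change of -3.33 (SE 1.46) did not pass the test. The second translocator gene, orange1.1t03425, had 937, 1077 and 1922 reads in Gv, against 969, 1061 and 3406 in control roots, and passed the test of the replicate number (adjusted p = 0.0465, edgeR's quasi-likelihood F test). A further translocator gene, Cs3g12715, had 16, 28 and 14 reads in Gv, against 22, 14 and 20 in control roots, with replicate 3 the highest in neither group. The glucan-branching enzyme gene Cs3g27220 had 1153, 1108 and 1212 reads in Gv, against 1124, 1073 and 2399 in control roots. The most abundant sucrose synthase gene, Cs4g06850, whose product cleaves incoming sucrose, had 7037, 9122 and 15467 reads in Gv, against 10244, 9408 and 16740 in control roots, highest in replicate 3 of both groups. The sucrose synthase gene Cs5g33470 was lowest in replicate 3 of both groups. It had 4350, 5639 and 3291 reads in Gv, against 3575, 4294 and 2559 in control roots. Its Gv to control ratios were 1.27, 1.26 and 1.37 for numbers 1, 2 and 3.

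Transcripts of starch enzymes follow the daily cycle in many plants, and 3 clock genes were read beside them. The GIGANTEA-like gene Cs3g21790, an evening component of the plant clock, had 2105, 2505 and 417 reads in Gv, against 1872, 2259 and 517 in control roots. It was low in replicate 3 of both groups and passed the test of the replicate number (adjusted p = 0.0358, edgeR's quasi-likelihood F test). Pseudo-response regulator 9 (orange1.1t00571) had 38, 37 and 12 reads in Gv, against 20, 28 and 9 in control roots, and pseudo-response regulator 7 (Cs7g27910) 39, 25 and 25 against 36, 36 and 23. Harvest times are not given in the sources used here, and the part of the clock genes, and of the PT4 orthologs, in the values of replicate 3 was not tested.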

How the data were processed

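Low-quality reads were removed by the authors, the rest were aligned to the *C. sinensis* genome with SOAPaligner/SOAP2, and the deposited counts are whole numbers of reads uniquely aligned to each gene. The deposited RPKM values are these counts per kb of gene and M (1e6) reads on genes, and the deposited coverage is the percent of a gene's bases under a read. Annotation version, strand and gene coordinates are not given in the sources used here. A gene that a library does not list was set to 0 reads.

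The test of Gv against control was edgeR 4.0.16 under R 4.3.3 (filter for expressed genes, TMM factors between 0.955 and 1.03, quasi-likelihood test, all 6 libraries, p-values adjusted over 16281 genes). The study's own method, NOISeq, was not used here. The scripts were tested on simulated data. Ratios of single libraries carry 95% exact binomial intervals.

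The starch genes and the other lists were chosen with earlier results of these data known, and enzyme classes were assigned from the annotation after the files were seen. Genes named by rule were Cs8g07230, the other genes annotated as AGPase, the highest and the most changed gene of each class, any gene called, and the gene of each class with the smallest p for the replicate number.

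Neither the labels nor the methods say what a replicate number shares. How far each library departed from its group mean was therefore correlated, across genes and so not over independent replicates, between libraries of one number. The r was 0.357, 0.481 and 0.613 for numbers 1, 2 and 3, all above 0.1, and the numbers were treated as pairs. Crossed pairs of numbers 1 and 2 gave 0.429 (Gv 1 with control 2) and 0.272 (Gv 2 with control 1). Deviations from a group mean cancel out within the group. A departure shared by both replicates 3 therefore makes numbers 1 and 2 correlate in any pairing. The r values show replicate 3 apart from the others and cannot settle whether numbers 1 and 2 are pairs. The common coefficient of variation was 29.9% without the block and 16.7% with it.

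Alternatives were the block, DESeq2 1.42.0, library totals, no filter, no fold limit, enzymes only and each library left out. Leaving out libraries in the test of the number or with the block, and adding genes by KEGG Orthology, were chosen after seeing the data.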

Additional observations from a re-analysis of the deposited data

How the results depend on the processing

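The count of 0 starch genes called between Gv and control roots held with the replicate number as a block, with DESeq2, library totals, no filter, no fold limit, enzymes only, genes added by KEGG Orthology and each library left out, with the block or without, but DESeq2 gave Cs8g07230 no p-value and could not call it. Over all genes the 0 calls became 162 with the replicate block, 237 with DESeq2, and between 0 and 69 with each library left out (69 without Gv replicate 3). The pairing by number therefore changed the count over all genes and no call of a starch gene. With library totals, with no filter and with any library but Gv replicate 3 left out, 0 of all genes were called without the block. No fold limit, enzymes only and genes added by KEGG Orthology used the main fit. Its smallest adjusted p over all genes was 0.270 (edgeR's quasi-likelihood test). In these settings the 0 starch genes could not have been otherwise, so they are no check of robustness. Starch genes that differed by replicate number were 1, but 6 with DESeq2, 3 with library totals, 3 with no filter, 3 with genes added by KEGG Orthology and between 0 and 8 with a library left out. Over all genes this test called 764, but 1175 with DESeq2, 1223 with library totals, 1186 with no filter and between 0 and 1367 with a library left out. Of 130 pairs of a named gene and an alternative, 9 reversed the sign of a log2 fold change that was not called. In the test of the replicate number, leaving out a library leaves its number with a single library, so those counts show dependence on single libraries only. Leaving out control replicate 3 leaves Gv replicate 3 without its same-numbered control. With each library left out in turn the log2 fold change ranged over -3.49 to 1.24 for Cs8g07230, -1.08 to 0.30 for Cs2g18800, -0.71 to 0.0194 for Cs8g19800, -0.56 to 0.20 for Cs7g09060, -1.61 to 0.28 for Cs5g31690, -0.44 to 0.29 for Cs9g16530 and -0.24 to 0.0497 for Cs2g03070, with the highest value without control replicate 3 in each, and over -0.26 to 0.0191 for Cs2g17060, with the sign reversed without Gv replicate 1 or 2 (0.0161). The sign did not reverse for the other named genes tested, with ranges of 0.15 to 1.25 for orange1.1t03470, 0.07 to 0.50 for Cs6g22020, -0.47 to -0.10 for Cs7g21650, -0.42 to -0.03 for Cs6g21370 and 0.12 to 0.27 for Cs9g18160.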

Other observations

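KEGG Orthology places 21 further genes among starch enzymes that the wording of their annotation leaves out, and 20 of them were tested. Between Gv and control roots 0 were called by edgeR's quasi-likelihood test without the block (0% of all genes) or with it (0.958% higher and 0.0369% lower). DESeq2 also called 0 (1.21% and 0.0368% of the genes it tested), and the median log2 fold change was -0.15. Without the block 1 gene had an unadjusted p under 0.05, against 4.57% of all genes. It was Cs6g16550, annotated as a 4-alpha-glucanotransferase, the enzyme type that rearranges short glucans during starch breakdown. Its level was 14.9, 16.5 and 16.4 RPKM in Gv, against 19.2, 18.0 and 20.7 RPKM in control roots. Every Gv library was below every control library, as in 3.99% of all genes tested, with Gv to control ratios of 0.791 (95% exact interval 0.711 to 0.880), 0.861 (0.777 to 0.955) and 0.809 (0.730 to 0.896) for numbers 1, 2 and 3. The log2 fold change of -0.29 (SE 0.12) did not pass the correction (adjusted p = 1.00 without the block and 0.494 with it, edgeR's quasi-likelihood test). With the block Cs7g04310, placed as an alpha-amylase, also had an unadjusted p under 0.05, as did 8.998% of all genes. Its log2 fold change was -0.27 (adjusted p = 0.534, edgeR's quasi-likelihood test). The granule-bound starch synthase gene orange1.1t00566, whose enzyme makes amylose, had 1634, 1436 and 3287 reads in Gv, against 1485, 1422 and 6544 in control roots. Its mean of 142 RPKM over the 6 libraries was above that of any gene selected by wording. Replicate 3 was the highest of each group, at 2.19 times (95% exact interval 2.09 to 2.30) replicates 1 and 2 pooled in Gv and 4.32 times (4.14 to 4.52) in control roots, and the gene passed the test of the replicate number (adjusted p = 0.0490, edgeR's quasi-likelihood F test). The branching enzyme gene Cs6g15320 had 438, 476 and 618 reads in Gv, against 508, 501 and 1569 in control roots.

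The genes placed as alpha-amylases, which cut chains from within, had their high values in different libraries. Cs3g26820 had 118, 100 and 265 reads in Gv, against 91, 77 and 395 in control roots, high in both replicates 3, and it too passed the test of the replicate number (adjusted p = 0.0393). Cs3g23560 had 49, 52 and 168 reads in Gv, against 98, 62 and 35 in control roots, so that Gv replicate 3 was the highest and control replicate 3 the lowest of the 6 libraries. Its log2 fold change of 0.50 did not pass the test. The genes of these paragraphs were picked after their values were seen.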
